A study of Homo sapiens with 18 samples.

Results

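Knockdown of protein kinase R (PKR) with PKR siRNA 1 was compared with control siRNA in PANC-1 cells, and the comparison was described across genes. Genes were included where the mean over the 9 siRNA libraries was 10 normalized counts or more, which gave 10593 of the 26485 genes listed. PANC-1 is an established epithelial line from a human pancreatic ductal carcinoma. The cells received a control siRNA or either of 2 siRNAs against PKR, and poly(A) RNA was sequenced 72 h after transfection, with 3 libraries for each siRNA. All cells had therefore been transfected, the controls included, and the parental line was the same throughout. PKR siRNA 2 is used here only to show where the PKR siRNA 1 libraries differ from a second knockdown of the same gene.

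PKR, encoded by EIF2AK2, is a kinase that is switched on by double-stranded RNA. When active it phosphorylates the alpha subunit of the initiation factor eIF2, which lowers general translation and favours translation of a few mRNAs such as that of the transcription factor ATF4. The same signal is also sent by the kinases PERK, GCN2 and HRI, and the programme of genes that follows is called the integrated stress response. PKR is itself an interferon-stimulated gene and has been linked to NF-kB signalling. An siRNA is a short RNA duplex whose guide strand directs the cleavage of matching mRNA, and it can also lower mRNAs that match only its seed.

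The libraries held 1512940 to 1873906 reads on genes. The 6 libraries of PKR siRNA 1 and control siRNA expressed the epithelial keratins KRT8, KRT18 and KRT19, whereas CDH5, VWF, PTPRC, CD3E, CPA1, CELA3A, INS and GCG, which mark endothelial, blood, acinar and islet cells, were listed at 0 in all 6. The other markers of those cells were not all absent. CD68, a lysosomal glycoprotein used as a macrophage marker, was at 147 to 169 normalized counts with control siRNA and at 205 to 273 with PKR siRNA 1 (log2 fold change 0.58, not called), and LYZ was at 2.15 to 3.79 and 2.22 to 4.82. PECAM1 reached 0.965 and PRSS1 0.907. The sum over the 4 blood cell markers (PTPRC, CD3E, CD68 and LYZ) was 149 to 173 with control siRNA and 208 to 276 with PKR siRNA 1, and its part in the results was not tested. CDKN2A, a gene that PANC-1 lacks, was also listed at 0. The summed level of 6 epithelial markers (KRT7, KRT8, KRT18, KRT19, EPCAM and CDH1) was 5360 to 5450 normalized counts with control siRNA and 3050 to 3280 with PKR siRNA 1. These are bulk libraries, so fewer cells of a kind and less RNA per cell cannot be told apart. Whether the libraries came from separate cultures is not given in the sources used here, and the p-values measure the spread between these libraries.

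EIF2AK2, the target, is read from the minus strand on chromosome 2 from 37105141 to 37157047 (hg38). It was counted at 95.5, 93.5 and 103 normalized counts in the control libraries and at 10.0, 13.6 and 9.65 with PKR siRNA 1. Every PKR siRNA 1 library lay far below every control library, and the mean was 8.79-fold lower (log2 fold change -3.04, standard error 0.25, adjusted p = 4.69e-18, limma with Benjamini-Hochberg adjustment). The mean level with PKR siRNA 1 was 11.1 ± 2.19 and that with PKR siRNA 2 8.65 ± 0.726 (SD, n = 3 each), a direct difference of 0.31 on the log2 scale with a standard error of 0.25 that did not pass the test. 

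A gene was called when its adjusted p was under 0.05 and its fold change over 1.5, on the scale of log2 (normalized count + 1), on which genes with few reads show too small a change. PKR siRNA 1 raised 904 genes (8.53% of those tested) and lowered 1331 (12.6%). The falls were larger than the rises: 533 genes fell more than 2-fold and 53 more than 4-fold, while 211 rose more than 2-fold and 9 more than 4-fold. The median log2 fold change over all genes tested was -0.01. The control and PKR siRNA 1 libraries did not overlap for 5473 genes (51.7%), and this held for 868 of the 904 genes called up and for 1287 of the 1331 called down. At the edge of the minimum lay C11orf71, with a mean of 9.998, which was left out, and TFAP2C, with 10.003, which was kept.

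Calls were more frequent among genes of low level, where the error was larger. Of genes with a mean of 10 to 30, 11.9% were called up and 14.8% down with a median standard error of 0.28, and of genes with a mean over 300, 5.5% were called up and 10.2% down with a median standard error of 0.07. Genes called down had more exonic bases, with a median of 4090, than genes called up, with 3230, and all genes tested, with 3480. The share called down was 5.8% for genes with under 1000 exonic bases and 15.8% for those with 4000 to 8000, while the share called up was 9.05% and 7.51%. The part that length has in the calls was not tested.

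**Figure D1:**
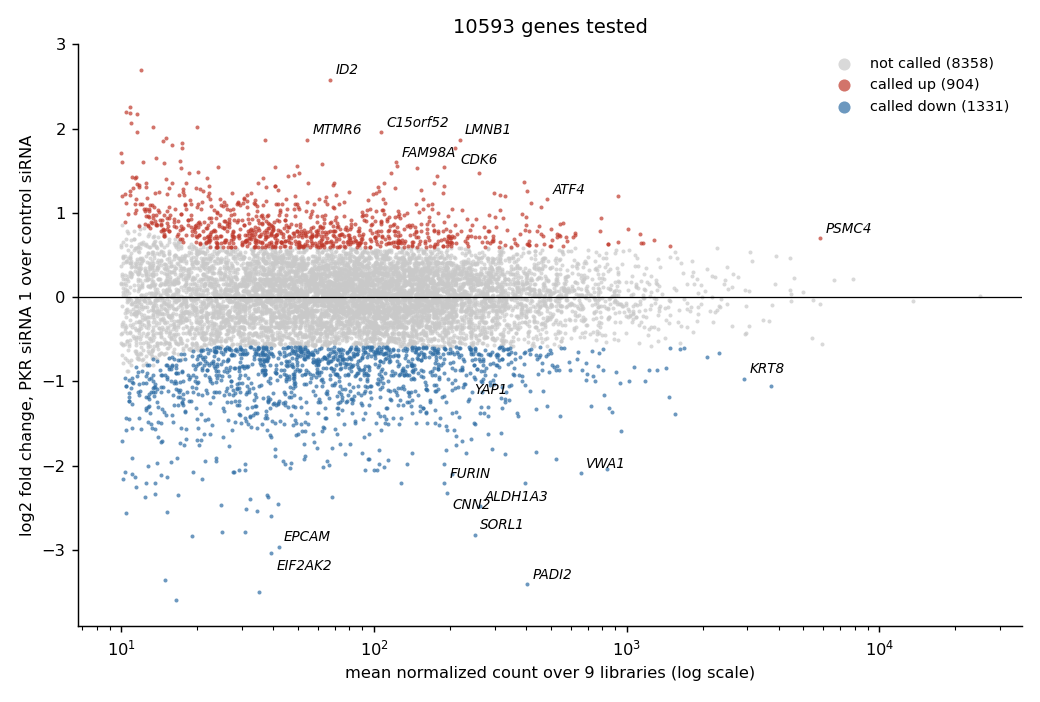
Log2 fold change with PKR siRNA 1 over control siRNA (vertical axis) against the mean normalized count over 9 libraries (horizontal axis, log scale), 1 point for each of the 10593 genes tested. Red points are the 904 genes called up and blue points the 1331 called down, and PADI2, SORL1 and ALDH1A3 lie lowest among the well-expressed genes.

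At a mean of 50 normalized counts or more, the largest falls were those of PADI2, SORL1 and ALDH1A3. PADI2, on chromosome 1 from 17066761 to 17119453, encodes a peptidylarginine deiminase, which turns arginine in proteins into citrulline. It had 773, 826 and 710 normalized counts with control siRNA and 65.5, 87.1 and 63.7 with PKR siRNA 1. The mean was 10.7-fold lower (log2 fold change -3.41, standard error 0.09, adjusted p = 4.36e-48). SORL1, on chromosome 11 from 121452203 to 121633762, encodes a sorting receptor of the VPS10 family that moves cargo between the Golgi and endosomes. It fell from 541, 559 and 582 to 84.4, 78.9 and 72.4 normalized counts (log2 fold change -2.82, standard error 0.10). ALDH1A3, on chromosome 15 from 100879692 to 100916625, makes retinoic acid from retinal. Its counts were 354, 352 and 372 in the controls and 58.9, 74.4 and 58.9 with PKR siRNA 1 (log2 fold change -2.48, standard error 0.09). For each gene shown here by library whose groups did not overlap, the exact permutation test (two-sided) gave p = 0.1, the smallest that 3 libraries against 3 allow.

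Of these, ALDH1A3 had the largest difference between the 2 siRNAs. With PKR siRNA 2 its counts were 324, 390 and 370, at the level of the controls, and the direct difference of PKR siRNA 1 from PKR siRNA 2 was -2.48 on the log2 scale (standard error 0.09, adjusted p = 4.99e-38). PADI2 was lower with PKR siRNA 1 than with PKR siRNA 2, where its counts were 348, 412 and 343, by a log2 difference of -2.34 (standard error 0.09). SORL1 stood at 125, 106 and 110 with PKR siRNA 2, and its log2 difference of -0.53 stayed under the fold threshold.

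The next falls were those of PGM2L1, an enzyme that makes glucose bisphosphate (log2 fold change -2.37), CNN2, the actin-binding protein calponin 2 (-2.32), and PDGFB, a growth factor for mesenchymal cells (-2.21). FURIN, a protease that cuts the precursors of growth factors and receptors, fell from 249, 228 and 238 to 48.9, 57.1 and 46.3 normalized counts. Its 3 PKR siRNA 1 libraries were close together, and its log2 fold change was -2.21 with a standard error of 0.10. LXN, an inhibitor of carboxypeptidases, had a log2 fold change of -2.21, FKBP9, a prolyl isomerase of the endoplasmic reticulum (ER), -2.10, VWA1, a matrix protein, -2.09, the adhesion molecule ALCAM -2.05, and the calcium channel subunit CACNA2D1 -2.05.

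Of the 12 largest rises, that of ID2 was first. ID2 encodes an inhibitor of basic helix-loop-helix factors, and its counts were 6.16, 6.45 and 2.84 in the controls and 31.1, 37.2 and 34.7 with PKR siRNA 1. The level was low, and its rise was smaller than with PKR siRNA 2, whose libraries had 169, 143 and 175. Every control and PKR siRNA 1 value of ID2 lay below the minimum mean of 50 set for this ranking. That mean was taken over all 9 siRNA libraries, so ID2 entered the ranking only through its PKR siRNA 2 libraries. C15orf52, a gene of unclear function, rose from 60.6, 52.6 and 61.6 to 224, 212 and 250 (log2 fold change 1.96, standard error 0.14). LMNB1, on chromosome 5 from 126776623 to 126837020, encodes lamin B1 of the nuclear lamina, and its counts were 107, 105 and 96.7 and then 388, 374 and 374. The 3 values in each group lay close together, and the mean was 3.68-fold higher (log2 fold change 1.87, standard error 0.09). CDK6, on chromosome 7 from 92604921 to 92836627, encodes a kinase of the G1 phase and rose from 108, 84.9 and 74.9 to 298, 284 and 330. Its log2 fold change was 1.77 with a standard error of 0.10.

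The other rises among the 12 were those of the lipid phosphatase MTMR6 (log2 fold change 1.87), the RNA-binding protein FAM98A (1.60), the kinase MAP3K3 (1.58, with part of its exons opposite LIMD2), GEMIN5, which binds small nuclear RNAs (1.56), the small GTPase RHOG (1.55), the matrix protein THBS1 (1.53), the phosphatase PTP4A1 (1.47) and the TFIID subunit TAF4B (1.47). Each of the 24 genes remained called with each of the libraries left out in turn.

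**Figure D2:**
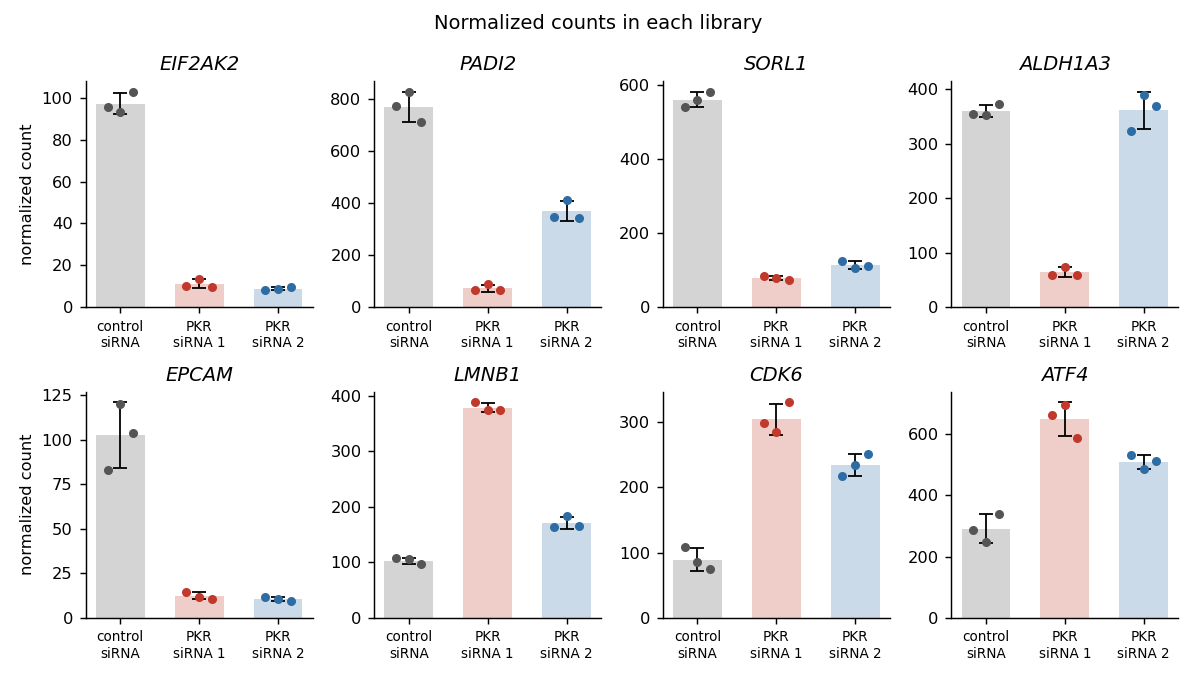
Normalized counts of 8 genes (vertical axis, from 0) in the libraries of the 3 siRNA groups, with points for the 3 libraries of each group, bars for the mean and error bars for the SD. With PKR siRNA 1 EIF2AK2, PADI2, SORL1, ALDH1A3 and EPCAM lie below every control library, and LMNB1, CDK6 and ATF4 above.

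**Figure D3:**
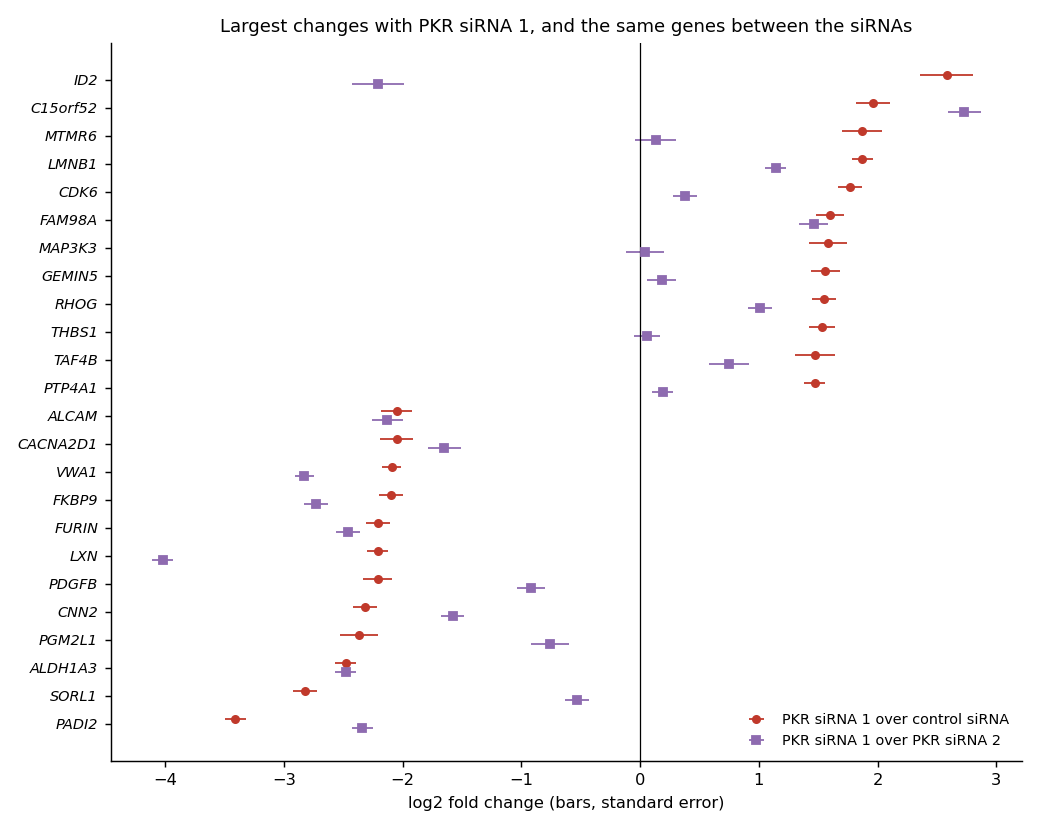
Log2 fold changes with standard errors (horizontal axis) of the 12 largest rises and 12 largest falls with PKR siRNA 1. Circles are PKR siRNA 1 over control siRNA and squares PKR siRNA 1 over PKR siRNA 2, and ID2 is the gene whose 2 values have opposite signs, 2.58 and -2.21.

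Genes were then described in 53 lists of pathways and families, which together named 1795 genes, of which 1531 were tested. The list with the largest share called up was that of ATF4 and integrated stress response targets, in which 13 of 21 tested genes rose (61.9%, against 8.53% of all genes) and 1 fell. Its median log2 fold change was 0.72. ATF4, on chromosome 22 from 39520559 to 39522686, is the factor that the list is named after, and its counts were 286, 248 and 341 with control siRNA and 663, 696 and 588 with PKR siRNA 1. All 3 knockdown libraries lay above the controls (log2 fold change 1.16, standard error 0.07, adjusted p = 2.22e-23). ATF3, a stress-induced factor, rose by 1.32 on the log2 scale from a low level of 21.1 ± 7.26. PPP1R15A, which brings a phosphatase to phosphorylated eIF2 and so ends the signal, rose from 83.2, 60.2 and 80.6 to 197, 203 and 151, with no overlap (log2 fold change 1.29). The other genes called up were CEBPB (1.14), SESN2 (0.95), CHAC1 (0.93), NOCT (0.82), DDIT4 (0.80), NUPR1 (0.80), CEBPG (0.79), DDIT3 (0.72), TRIB3 (0.67) and CARS (0.62). They hold transcription factors, regulators of TOR signalling (SESN2, DDIT4) and the glutathione-degrading enzyme CHAC1. The calls of CARS and TRIB3 were lost without the second PKR siRNA 1 library, those of TRIB3 and DDIT3 without the second control library, and that of NUPR1 without the first PKR siRNA 1 library.

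The member that fell was GDF15, a secreted stress cytokine and also a p53 target. Its counts were 480, 509 and 508 in the controls and 151, 183 and 154 with PKR siRNA 1, so it moved against the rest of its list (log2 fold change -1.61, standard error 0.08). Against PKR siRNA 2, 9 members were higher with PKR siRNA 1 and 4 lower, where 15.3% of all genes were higher and 16.4% lower. Of the 13 members called up, 7 were also higher than with PKR siRNA 2 and 2 were lower. ATF4 itself differed between the siRNAs by 0.34 on the log2 scale, under the fold threshold.

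Among the kinases, phosphatases and partners of eIF2, 4 of 22 genes rose (18.2%, against 8.53% of all genes) and 2 fell (9.09%, against 12.6%), with a median of 0.03. Beside PPP1R15A these were EIF2AK3, which encodes the ER kinase PERK (20.7 to 36.0 normalized counts, log2 fold change 0.76, with part of its exons opposite another gene), EIF2B2, a subunit of the exchange factor eIF2B (0.84), and EIF2S2, the beta subunit of eIF2 (0.62). The call of EIF2S2 was lost without the second control library. The genes that fell were EIF2AK2 and EIF2A, a separate initiation factor that can bring initiator tRNA (-0.81).

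Genes of amino acid synthesis and transport overlap with ATF4 targets in function. Of 29 tested, 8 rose (27.6%, against 8.53% of all genes) and 3 fell (10.3%, against 12.6%). SLC1A4, a carrier of neutral amino acids, rose by 1.18 on the log2 scale, SHMT2, the mitochondrial serine hydroxymethyltransferase, by 1.05, and PHGDH, the first enzyme of serine synthesis, by 0.77. SHMT2 had 144, 117 and 111 normalized counts with control siRNA and 267, 266 and 239 with PKR siRNA 1, where the knockdown values were more than any control value. These 3 genes were also higher than with PKR siRNA 2, by 1.58, 1.56 and 1.63. GLUL, which makes glutamine, fell from 63.7, 73.1 and 69.2 to 22.2, 18.1 and 20.3, and the branched-chain aminotransferase BCAT2 had a log2 fold change of -0.78. SHMT1, the cytosolic counterpart of SHMT2, had a log2 fold change of -0.62, and its call was lost without the second control library. Of the 40 aminoacyl-tRNA synthetases tested, which charge tRNAs with amino acids, 4 rose (10%) and 0 fell. They were MARS2 (0.85), SARS (0.71), HARS (0.70, with part of its exons opposite HARS2) and CARS, a share near that of all genes. By limma 6 were lower at an unadjusted p under 0.05, and edgeR and DESeq2 called 0 down.

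To show which of these promoters hold letters that C/EBP-ATF dimers can bind, promoters from RefSeq (GRCh38.p14) were searched for TTGCATCA on both strands, in the 250 bases before and 50 after the first listed start of each gene. A promoter was matched for 8629 of the tested genes. The letters occurred in 37 of them (0.429%), in 9 of 740 promoters of genes called up (1.22%) and in 2 of 1070 of genes called down (0.187%). They were found in 5 of 29 promoters of the aminoacyl-tRNA synthetases (17.2%), 2 of 19 in the ATF4 list and 2 of 20 in the amino acid list. A match is a description of letters and not of binding. For 5 genes a match before the start is printed with up to 26 bases on each side, the motif or its reverse complement in capitals. They set called genes beside genes of the same motif that were not called. Promoters on some chromosomes were left out of the printing, wherever their match lay. CHAC1 lies at chr15:40953236-40953295 on the plus strand, MTHFD1L at chr6:150866331-150866390 on the plus strand, GOT1 at chr10:99430789-99430848 on the minus strand, AARS at chr16:70289660-70289719 on the minus strand and IARS at chr9:92293698-92293736 on the minus strand.
CHAC1: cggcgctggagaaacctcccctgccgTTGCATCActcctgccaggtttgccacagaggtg
MTHFD1L: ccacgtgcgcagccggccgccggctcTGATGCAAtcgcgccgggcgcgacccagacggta
GOT1: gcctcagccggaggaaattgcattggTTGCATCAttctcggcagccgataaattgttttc
AARS: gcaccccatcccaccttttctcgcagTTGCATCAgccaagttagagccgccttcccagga
IARS: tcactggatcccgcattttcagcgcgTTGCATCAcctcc
CHAC1 (log2 fold change 0.93), the folate enzyme MTHFD1L (0.65) and the aspartate aminotransferase GOT1 (0.64) were called up. The synthetases AARS (0.38) and IARS (-0.32) hold the same letters and were not called. No sequence is printed for the other 3 synthetases with these letters, and where the letters lie in them is not given here. CARS was called up (0.62, lost without the second PKR siRNA 1 library), and NARS (0.29) and TARS (0.14) were not called. These genes were chosen for the motif after the values were known.

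Other stress programmes held fewer calls, where 8.53% of all genes rose and 12.6% fell. Of 29 ER chaperones and genes of the unfolded protein response 3 rose and 2 fell. The falls were those of the transcription factor CREB3L2 (-1.23) and the oxidase ERO1B (-1.08), and each of the rises, those of HERPUD1 (0.70), MANF (0.66) and CANX (0.61), depended on single libraries. HERPUD1 lost its call without the second control library, MANF without the second PKR siRNA 1 or the first control library, and CANX without the third library of either group. Among 33 cytosolic heat shock chaperones 0 rose and 2 fell, HSF1, the heat shock factor itself (-1.04), and DNAJB4 (-0.82). Among them 6 were higher at an unadjusted p under 0.05 in limma, and the 2 count tools called 0 up. By contrast 10 of 42 proteasome subunits rose (23.8%) and 0 fell, with a median log2 fold change of 0.42. Of the subunits 4 were lower at an unadjusted p under 0.05 in limma, which called 1 down without the second PKR siRNA 1 library, and edgeR and DESeq2 called 0 down. PSMB2, a subunit of the core particle, rose from 218, 227 and 233 to 425, 440 and 437. PSMC4, an ATPase of the base and the most abundant of the list, had 4830, 4750 and 4870 in the controls and 7790, 7910 and 7740 with PKR siRNA 1. In both genes the 3 knockdown libraries were tightly grouped above the controls, and the log2 fold changes were 0.94 and 0.70. The lid subunit PSMD13 rose by 0.76 on the log2 scale. Of the 42 subunits 11 were higher than with PKR siRNA 2, where 15.3% of all genes were. Among the 11 were 8 of the 10 called up.

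Among 79 cytosolic ribosomal proteins 0 rose and 4 fell, below both shares for all genes (8.53% up and 12.6% down), and the median was -0.04. At an unadjusted p under 0.05 in limma 12 were higher, and edgeR and DESeq2 called 0 up. The 4 were RPL27 (-0.94), RPL5 (-0.87), RPS10 (-0.87, with most of its exons shared with RPS10-NUDT3) and RPS3 (-0.61). The call of RPS3 was lost without the third library of either group. RPL5 went from 683, 692 and 721 to 414, 351 and 382, a fall that stood apart from the spread of its group. Of 33 initiation factors 2 rose, EIF2S2 and EIF3J, and 2 fell. Both rises were lost without the second control library, while 4 factors rose without the third, and the fall of EIF5A2 was lost without the second PKR siRNA 1 library. Of 78 mitochondrial ribosomal proteins 5 rose and 2 fell, with 3 rises without the second PKR siRNA 1 library. Of 77 subunits of the respiratory chain and ATP synthase 2 rose and 2 fell, with a median of 0.16, and without the first or the third PKR siRNA 1 library 1 rose. The complex I subunit NDUFV2 had the largest fall of that list (236, 228 and 241 to 94.4, 105 and 79.1, log2 fold change -1.34). Ribosomal proteins have many processed pseudogenes, and reads shared with them could be split in ways not seen here.

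Cell cycle genes rose in part. Of 50 genes of mitosis, spindle and kinetochore 7 rose (14.0%, against 8.53% of all genes) and 0 fell. A positive log2 fold change was found in 44 of the 50, and the median was 0.27. In limma 2 were lower at an unadjusted p under 0.05, and edgeR and DESeq2 called 0 down. PLK1, a kinase of mitotic entry, had 179, 175 and 171 normalized counts with control siRNA and 314, 354 and 289 with PKR siRNA 1. FOXM1, a transcription factor of the G2 and M phases, went from 163, 186 and 162 to 273, 283 and 321, and part of its exons lie opposite another gene. Neither gene's groups overlapped, and the log2 fold changes were 0.86 and 0.78. MKI67, the antigen Ki-67 (0.68), NDC80 of the kinetochore (0.64), PTTG1, which encodes securin (0.63), PRC1 of the spindle midzone (0.62) and the kinesin KIF18A (0.59) were the others. Of these 5, MKI67 was called with each library left out, while NDC80 and KIF18A lost their calls without the first PKR siRNA 1 library, PRC1 without the third, PTTG1 without the second, and PTTG1 and KIF18A also without the second control library. Against PKR siRNA 2, 37 of the 50 were higher with PKR siRNA 1 and 1 was lower, where 15.3% and 16.4% of all genes were, and the 7 called genes were among the 37. The list median with PKR siRNA 2 against control siRNA was -0.43. Much of the difference between the siRNAs thus lay in a fall with PKR siRNA 2. PLK1 stood at 137, 127 and 147 with PKR siRNA 2, a log2 difference of 1.21 (standard error 0.09).

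Many mitotic promoters hold the CCAAT box that the factor NF-Y binds. CCAAT was found on either strand in 33 of 43 matched promoters of this list (76.7%), and in 37.2% of the promoters of all genes tested, 40.1% of those of genes called up and 32.2% of genes called down. For the called members with a match before the start, the last match before the start is printed with up to 26 bases on each side and the box in capitals. They are PLK1 (chr16:23678790-23678846, plus strand), KIF18A (chr11:28108171-28108227, minus), PRC1 (chr15:90994558-90994614, minus), PTTG1 (chr5:160421781-160421837, plus) and MKI67 (chr10:128126424-128126473, minus).
PLK1: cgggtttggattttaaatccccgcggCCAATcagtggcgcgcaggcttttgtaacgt
KIF18A: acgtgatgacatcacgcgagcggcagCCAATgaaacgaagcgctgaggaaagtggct
PRC1: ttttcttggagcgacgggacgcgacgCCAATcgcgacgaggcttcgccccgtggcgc
PTTG1: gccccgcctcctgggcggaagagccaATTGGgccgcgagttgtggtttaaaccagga
MKI67: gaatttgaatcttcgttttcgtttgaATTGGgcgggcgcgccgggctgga
The printed box began 73, 45, 53, 48 and 24 bases before the start. In PTTG1 and MKI67 it was read on the other strand, and in PTTG1 it overlaps a copy on the strand shown.

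Among 32 G1 cyclins, kinases, inhibitors and E2F factors 7 rose (21.9%, against 8.53% of all genes) and 3 fell (9.38%, against 12.6%). Beside CDK6 the largest rises were those of CDK2 (68.8, 62.3 and 61.6 to 161, 138 and 154, log2 fold change 1.22), the kinase of the G1/S transition, and E2F7, a repressor of E2F targets (1.13). Both kinase genes were thus higher in each PKR siRNA 1 library than in any control. Inhibitors rose too, CDKN2D by 1.07 and CDKN2C by 0.85, as did RB1 (0.67) and the growth arrest gene GADD45A, which had 68.8, 51.6 and 82.5 in the controls and 112, 117 and 124 with PKR siRNA 1. GADD45A was lower than with PKR siRNA 2, with a log2 difference of -0.83. The falls of E2F2 (-0.71), TFDP2 (-0.68) and CDK7 (-0.61) were lost when single libraries were left out: the second PKR siRNA 1 library for TFDP2, the second or the third PKR siRNA 1 or the third control library for E2F2, and the third PKR siRNA 1 or the second control library for CDK7.

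Of 50 genes of DNA replication 3 rose and 3 fell (6.0% each, against 8.53% up and 12.6% down over all genes). Without the second control library 5 rose. Of 38 genes of homologous recombination, the Fanconi pathway and checkpoints 4 rose (10.5%) and 1 fell (2.63%), and without the third PKR siRNA 1 library 2 fell. WEE1, the kinase that holds cells before mitosis, rose from 92.4, 77.3 and 79.6 to 190, 183 and 170 (log2 fold change 1.12). Among 16 lamins and HMG chromatin proteins 4 rose (25%) and 1 fell. LBR, the lamin B receptor, rose by 1.00 on the log2 scale along with LMNB1, and HMGA2, a chromatin protein of embryonic cells and tumours, had a log2 fold change of -0.92. LMNB1 and LBR were both higher than with PKR siRNA 2, by 1.14 and 1.83. Of 14 polyadenylated histone transcripts 4 rose and 0 fell, led by HIST2H2BE (1.17), whose call was lost without the first control library, and HIST1H1C (1.04). In limma 4 histone transcripts were lower at an unadjusted p under 0.05, with 0 called down by the count tools.

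**Figure D4:**
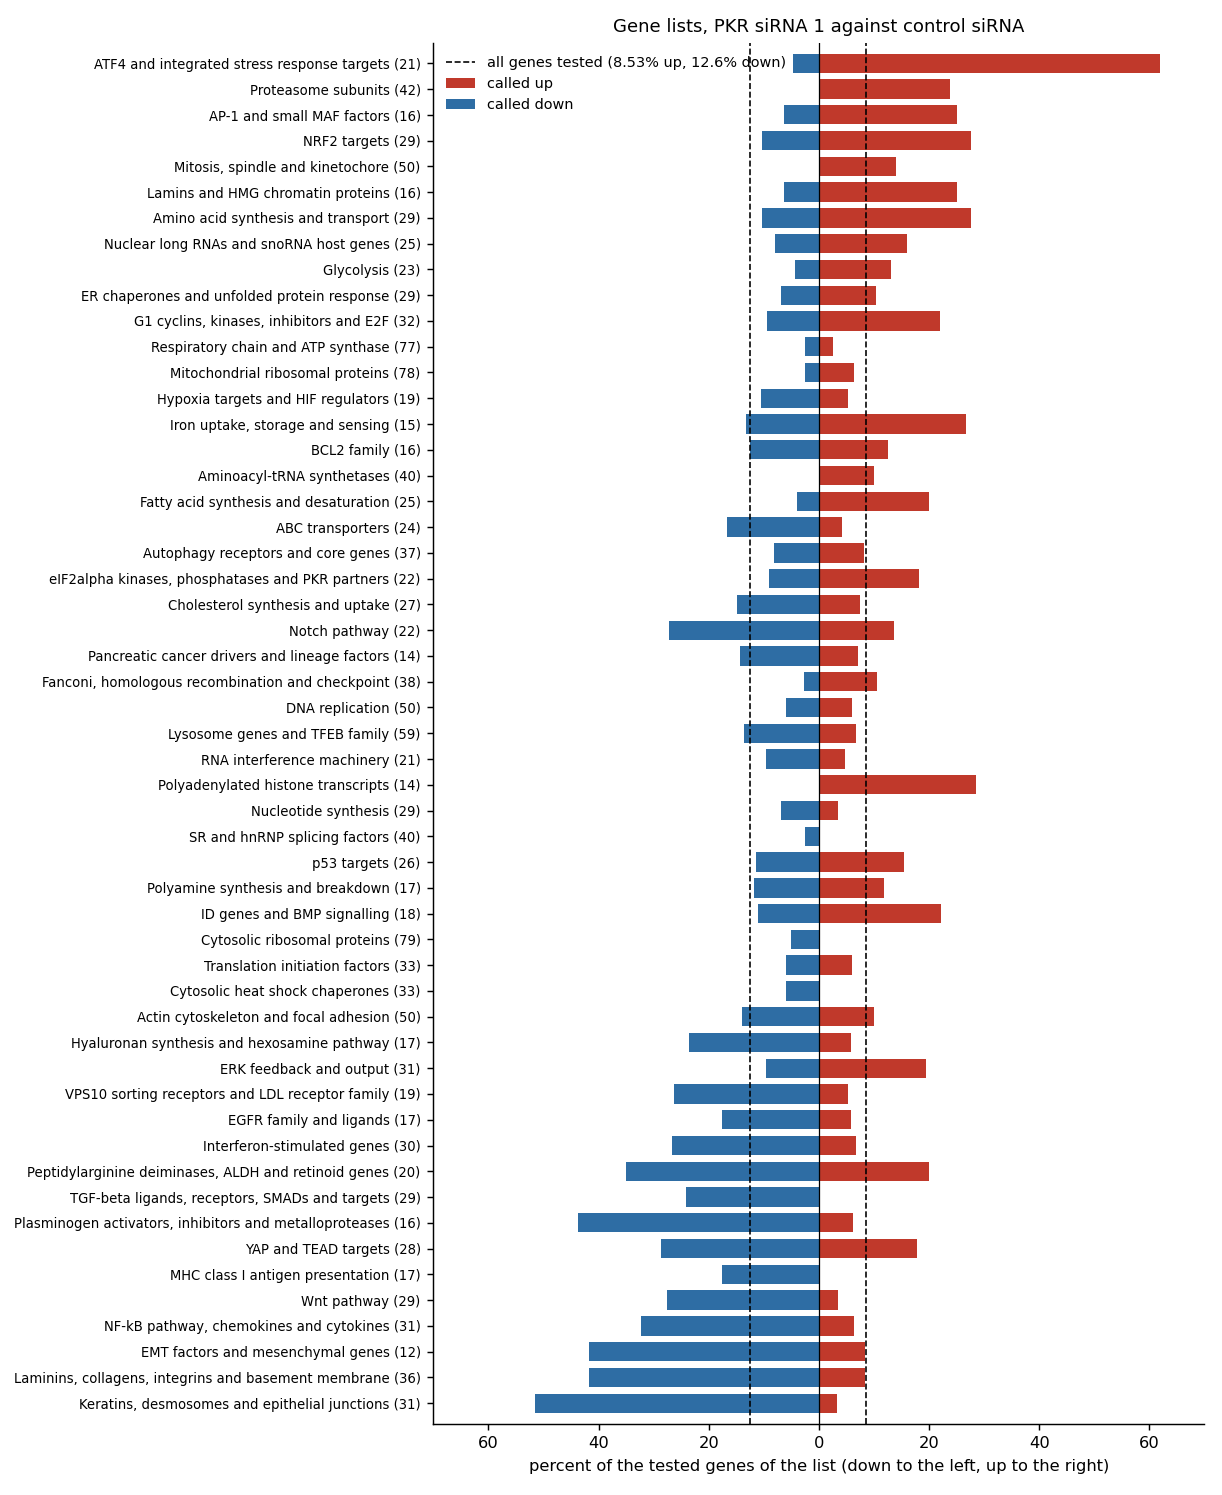
Percent of the tested genes of each of the 53 lists called up (red, to the right) and down (blue, to the left), sorted by the list's median log2 fold change, with the number tested in brackets. Dashed lines mark the shares over all genes tested, 8.53% and 12.6%, and the ATF4 list (61.9% up) and the keratin and junction list (51.6% down) lie at the ends.

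More genes of innate immunity fell than rose, as did more of all genes tested (12.6% down and 8.53% up). Of 30 interferon-stimulated genes 8 fell (26.7%, against 12.6% of all genes) and 2 rose, with a median of -0.26. With PKR siRNA 2 against control siRNA the median of this list was -0.4. IFITM2, which blocks virus entry, fell from 39.0, 47.3 and 35.1 to 18.9, 29.0 and 16.4. All 3 of its PKR siRNA 1 libraries lay below the controls, and its log2 fold change was -0.92 with a standard error of 0.20. IFITM1 of the same family (-1.07), TRIM25 (-0.81), a ubiquitin ligase of RNA sensing, DTX3L (-0.79), the factors IRF7 (-0.71) and IRF1 (-0.68) and OAS3 (-0.60) also fell. OAS3 lost its call without the third PKR siRNA 1 library or the second control library. IFIT2 (0.97) and IFIT5 (0.67) rose, calls that were lost without the third and without the first control library. Of 17 genes of MHC class I antigen presentation 3 fell (17.6%) and 0 rose. The list median was -0.32, and -0.36 with PKR siRNA 2 against control siRNA. The tools edgeR and DESeq2 each called 1 up, as did limma without the first PKR siRNA 1 library or the third control library. In limma 2 were higher at an unadjusted p under 0.05. ERAP2, a peptide trimming enzyme, went from 41.1, 32.2 and 54.0 to 3.33, 8.16 and 4.82 (log2 fold change -2.79).

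In the list of the NF-kB pathway, chemokines and cytokines 10 of 31 genes fell (32.3%, against 12.6% of all genes) and 2 rose (6.45%, against 8.53%), with a median of -0.42. ICAM1, an adhesion molecule for leukocytes, had 331, 307 and 342 normalized counts with control siRNA and 129, 120 and 125 with PKR siRNA 1. The membrane chemokine CX3CL1 had 53.4, 64.5 and 47.4 in the controls. In both genes every PKR siRNA 1 library was below every control, with log2 fold changes of -1.38 and -1.43. The genes that fell included the NF-kB subunits RELB (-1.15) and NFKB2 (-0.85) and the kinase MAP3K14 (-1.07), and the subunit RELA rose by 0.73 (184 to 305 normalized counts). IL32 (-1.27) lost its call without the third PKR siRNA 1 library or the first control library. Against PKR siRNA 2, 12 of the 31 genes were higher with PKR siRNA 1 and 1 was lower, where 15.3% and 16.4% of all genes were. The list median with PKR siRNA 2 against control siRNA was -0.79, so the list fell further with that siRNA.

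Epithelial and matrix genes held the largest shares of falls. Of 31 keratins, desmosome and junction genes 16 fell (51.6%, against 12.6% of all genes) and 1 rose (3.23%, against 8.53%), with a median of -0.60. EPCAM, an epithelial adhesion molecule, lies on chromosome 2 from 47369148 to 47387028, and its counts were 83.2, 120 and 104 in the controls and 14.4, 11.8 and 10.6 with PKR siRNA 1. Its mean was 8.35-fold lower (log2 fold change -2.96, standard error 0.24, adjusted p = 2.2e-18). PPL, which encodes the desmosomal protein periplakin, fell from 919, 1020 and 898 to 238, 286 and 225, and JUP, plakoglobin of desmosomes and adherens junctions, from 562, 559 and 553 to 161, 167 and 139. Both groups of both genes were narrow and far apart, with log2 fold changes of -1.92 and -1.84. Falls also covered KRT80 (-1.66), claudin CLDN1 (-1.47), P-cadherin CDH3 (-1.44), LSR (-1.20), cingulin CGN (-1.08), DSC2 (-1.03), DSP (-0.83), occludin OCLN (-0.69) and the simple keratins KRT8 (-0.97), KRT18 (-0.60) and KRT19 (-0.60). KRT8, the most abundant, had 2500, 2570 and 2510 in the controls and 1290, 1350 and 1250 with PKR siRNA 1. CLDN12 rose (0.73). The calls of KRT18 and KRT19 were lost without the first PKR siRNA 1 library, that of KRT19 also without the third or without the first control library, and that of DSC2 without the second PKR siRNA 1 library or without the first or the third control library. Against PKR siRNA 2, 12 of the 31 were lower with PKR siRNA 1 and 6 higher, where 16.4% and 15.3% of all genes were. The median log2 difference was -0.19. Single genes differed more, with log2 differences of -1.94 for JUP and -1.93 for KRT8, while EPCAM differed by 0.18 with a standard error of 0.24.

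Among 36 laminins, collagens, integrins and other basement membrane genes 15 fell (41.7%, against 12.6% of all genes) and 3 rose (8.33%, against 8.53%), with a median of -0.47. HSPG2, the heparan sulfate proteoglycan perlecan, fell from 1240, 1500 and 1240 to 274, 376 and 319 (log2 fold change -2.04, with part of its exons opposite LDLRAD2). The collagen genes COL4A5 (-1.91), COL1A1 (-1.86), COL12A1 (-1.08) and COL18A1 (-0.71), the laminins LAMB1 (-0.66) and LAMA5 (-0.64), the syndecans SDC4 (-1.17) and SDC1 (-0.78), TNC (-1.08), NID1 (-0.74), AGRN (-0.69) and the integrins ITGAV (-0.98) and ITGB5 (-0.66) were among the others. The calls of COL12A1 and LAMA5 were lost without the first PKR siRNA 1 library, and without the first and the second control library, respectively. COL1A1, usually a gene of fibroblasts, had 82.1, 109 and 94.8 normalized counts in the controls and 28.9, 21.8 and 26.1 with PKR siRNA 1. Of 5 fibroblast markers 4 were detected in these 6 libraries, and 1, COL1A1, reached the minimum for testing. DCN was listed at 0 in all 6, while COL3A1 reached 5.69, PDGFRB 3.22 and LUM 1.9. The sum over the 5 was 84.2 to 117 with control siRNA and 26.3 to 32.2 with PKR siRNA 1. Its part in the results was not tested. THBS1 and LAMC1 (0.88) rose. LAMB3 (1.12) lost its call without the second or the third PKR siRNA 1 library or the second control library.

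Of 16 plasminogen activators, inhibitors and metalloproteases 7 fell (43.8%, against 12.6% of all genes) and 1 rose (6.25%, against 8.53%). MMP1, a collagenase, fell from 53.4, 51.6 and 45.5 to 14.4, 10.9 and 12.5, with part of its exons opposite WTAPP1, and the membrane protease ADAM19 from 145, 136 and 142 to 41.1, 36.3 and 43.4. Each was below all controls in all 3 libraries. MMP2 (-1.04), MMP14 (-0.79), MMP15 (-0.62), TIMP2 (-0.99) and the urokinase gene PLAU (-0.94) fell as well, and ADAM9 had a log2 fold change of 0.93. MMP15 lost its call without the third PKR siRNA 1 library. In the list of epithelial-mesenchymal transition genes 1 of 12 rose (8.33%), ZEB1, and 5 fell (41.7%). The falls were those of the mesenchymal genes SPARC (-1.99), MMP2 and MMP14 and the epithelial genes CDH1 (-0.64) and ESRP2 (-0.61). ZEB1 lost its call without the second or the third PKR siRNA 1 library or the second control library. Without the second PKR siRNA 1 library 3 fell. CDH1 and ESRP2 lost their calls there and without the second control library, and ESRP2 also without the third. Vimentin (VIM), among the most abundant mRNAs, had 4740, 4630 and 4840 in the controls and 4920, 4950 and 4940 with PKR siRNA 1, a log2 fold change of 0.06 that did not pass (adjusted p = 0.163, limma). Of 50 actin cytoskeleton and focal adhesion genes 5 rose and 7 fell, near the shares for all genes, with CNN2 falling and CNN3 rising (1.23).

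**Figure D5:**
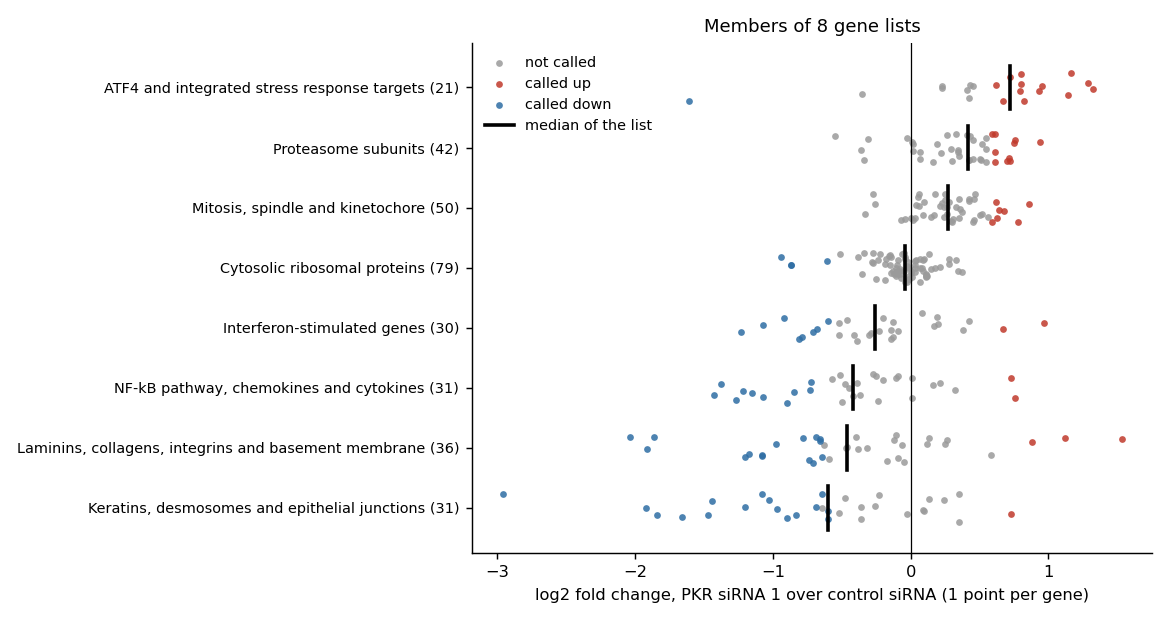
Log2 fold changes with PKR siRNA 1 over control siRNA (horizontal axis) of the tested members of 8 lists, 1 point per gene, colored by call, with a black line at the median of each list. Medians run from 0.72 for the ATF4 list and 0.42 for the proteasome to -0.60 for keratins and junctions, with cytosolic ribosomal proteins near 0 at -0.04.

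Signalling pathways contributed genes in both directions, where 8.53% of all genes rose and 12.6% fell. In the Hippo pathway, YAP1 and WWTR1 encode coactivators that work through the TEAD factors. Of 28 genes 8 fell and 5 rose, with a median of -0.31. YAP1 had 310 ± 9.53 normalized counts in the controls and 134 ± 8.21 after knockdown (log2 fold change -1.21, SDs over 3 libraries) and the log2 fold change of WWTR1 was -0.87. The TEAD family split: TEAD2 fell from 47.2, 44.0 and 37.9 to 6.66, 7.26 and 5.79 and TEAD3 had -1.36, whereas TEAD1 rose from 237, 264 and 240 to 491, 455 and 532 and TEAD4 by 0.73. All TEAD2 libraries with PKR siRNA 1 were below the controls, and all TEAD1 libraries above them. CYR61, a secreted YAP target, fell from 1760, 1640 and 1810 to 571, 580 and 580 (log2 fold change -1.59).

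Of 29 Wnt pathway genes 8 fell (27.6%, against 12.6% of all genes) and 1 rose (3.45%, against 8.53%). Without the third PKR siRNA 1 library or the second or the third control library 2 rose. The 8 encode receptors, co-receptors and a ligand, FZD5 (-1.22), FZD7 (-1.11), FZD2 (-0.82), FZD6 (-0.81), LRP5 (-0.89), ROR1 (-0.84), ROR2 (-0.81) and WNT7B (-0.95). ROR2 lost its call without the first PKR siRNA 1 library or without the first or the second control library. CTNNB1, which encodes beta-catenin, rose instead, from 187, 183 and 163 to 405, 408 and 408, with a log2 fold change of 1.20 and a difference from PKR siRNA 2 of 0.00 (standard error 0.08). Of 29 genes of TGF-beta signalling 7 fell (24.1%) and 0 rose (0 also by edgeR and DESeq2, with 1 higher at an unadjusted p under 0.05 in limma), among them the receptors TGFBR3 (-1.26) and TGFBR2 (-0.80), the latent TGF-beta binding protein LTBP1 (-0.88) and the induced inhibitor PMEPA1 (-1.25). TGFBR3 had 30.8, 33.3 and 32.2 in the controls and 15.6, 11.8 and 11.6 with PKR siRNA 1. Of 22 Notch pathway genes 6 fell and 3 rose, and without the second control library 3 fell. Without the first PKR siRNA 1 library 1 rose. HES2, a repressor of the HES family, fell from 25.7, 31.2 and 22.8 to 3.33, 6.35 and 7.72, the log2 fold change of LFNG, which adds sugars to Notch, was -1.37, and the ligand JAG1 rose (0.79).

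In BMP signalling the ID genes rose together. ID1 had 117, 106 and 102 in the controls and 199, 228 and 206 with PKR siRNA 1, and ID3 had 38.0, 32.2 and 40.8 and then 92.2, 88.0 and 106. In both, as in ID2, every knockdown library exceeded the controls, with log2 fold changes of 0.95 and 1.35. The type I receptor BMPR1A had a log2 fold change of -1.12. ID1, ID2 and ID3 were lower with PKR siRNA 1 than with PKR siRNA 2, with log2 differences of -2.06, -2.21 and -2.00. Over the list 4 of 18 genes rose (22.2%, against 8.53% of all genes) and 2 fell (11.1%, against 12.6%), and without the third PKR siRNA 1 library 1 fell. Of 31 genes of ERK feedback and output 6 rose and 3 fell. EGR1, an immediate early gene, rose from 8.21, 18.3 and 8.53 to 34.4, 38.1 and 33.8, and the log2 fold change of the ETS factor ETV4 was -1.69. EGR1 differed from PKR siRNA 2 by 3.14, on the log2 scale. Of 16 AP-1 and small MAF factors 4 rose (25%), which were JDP2 (1.54), ATF3, FOSL1 (0.71) and FOSL2 (0.64), and MAFK fell (-1.41, with part of its exons opposite TMEM184A). FOSL2 lost its call without the second control library. AP-1 sites (TGANTCA, either strand) were in 5.81% of the promoters of genes called up, 3.18% of genes called down and 3.88% of all genes. Of 17 genes of the EGFR family and its ligands 3 fell and 1 rose, or 2 without the first PKR siRNA 1 library, the sheddase ADAM10 falling from 338, 344 and 328 to 149, 150 and 161.

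Of 20 peptidylarginine deiminases, aldehyde dehydrogenases and retinoid genes 7 fell (35%, against 12.6% of all genes) and 4 rose (20%, against 8.53%). PADI2 and ALDH1A3 were among the falls. Both were known as large falls when the list was written, so its share of falls is not independent of them. CRABP2, which carries retinoic acid to its receptor, had 242, 308 and 282 with control siRNA and 93.3, 79.8 and 57.9 with PKR siRNA 1. RARG, a retinoic acid receptor, went from 107 ± 4.53 to 31.7 ± 6.55, and DHRS3, which turns retinal back to retinol, had a log2 fold change of -1.48. The CRABP2 groups did not overlap, and the log2 fold changes of CRABP2 and RARG were -1.86 and -1.74. CYP26B1, which degrades retinoic acid, had a log2 fold change of -0.97 and RDH10, which makes retinal, rose (0.88). The log2 differences from PKR siRNA 2 were -3.06 for CRABP2 and -1.38 for RARG. Of 19 VPS10 sorting receptors and LDL receptor family genes 5 fell (26.3%), and 3 without the second or the third PKR siRNA 1 library. In this list 1 rose (5.26%), or 2 without the first. Beside SORL1, whose fall was also known when the list was written, the falls included LRP5 and LRP1 (-0.75). LRP1 lost its call without the third PKR siRNA 1 library.

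Of 29 NRF2 targets 8 rose (27.6%, against 8.53% of all genes) and 3 fell (10.3%, against 12.6%), with a median of 0.27. HMOX1, heme oxygenase 1, had 198, 157 and 191 in the controls and 479, 517 and 419 with PKR siRNA 1 (log2 fold change 1.37). SRXN1 (0.90), glutathione transferase GSTP1 (0.81), thioredoxin TXN (0.78), ME1 (0.74), TALDO1 (0.69) and FTL (0.64) rose too. The 3 that fell included the ABC transporters ABCC1 (1370 to 687 normalized counts, log2 fold change -1.0) and ABCC3 (-0.82). PIR (0.86), which shares most of its exons with another gene entry, lost its call without the first PKR siRNA 1 library or the third control library. Antioxidant response elements (TGACNNNGC, either strand) were in 16.8% of promoters of genes called up, 12.6% of genes called down and 15.5% of all promoters. In iron handling 4 of 15 genes rose (26.7%) and 2 fell (13.3%). Of the falls, STEAP3 lost its call without the first PKR siRNA 1 library. TFRC, the receptor that takes up transferrin, fell from 1500, 1500 and 1580 to 620, 670 and 721, while FTL, a chain of the iron store ferritin, rose. The log2 difference of TFRC from PKR siRNA 2 was -1.72.

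Metabolic lists held calls in both directions, where 8.53% of all genes rose and 12.6% fell. Of 23 glycolysis genes 3 rose (13.0%) and 1 fell (4.35%). Hexokinase HK2 went from 24.6, 27.9 and 26.5 to 54.4, 69.8 and 56.0. The lactate carrier SLC16A1 went from 69.8, 74.1 and 50.2 to 166, 151 and 183. Both were raised in all 3 libraries, and both were higher than with PKR siRNA 2, by 1.97 and 0.77. Of 25 genes of fatty acid synthesis 5 rose and 1 fell. Without the first control library 3 rose, and 2 fell without it, without the second control library or without the second PKR siRNA 1 library. ACACB, the acetyl-CoA carboxylase of mitochondria, had a log2 fold change of -2.08. Of 27 cholesterol genes 2 rose (7.41%) and 4 fell (14.8%), near the shares for all genes. Of 19 hypoxia targets and regulators 1 rose (5.26%) and 2 fell (10.5%). The rises were 2 without the first PKR siRNA 1 library or without any 1 of the control libraries. In 3 of these 4 cases the added gene was BNIP3L, and without the second control library it was EPAS1. Of 59 lysosome genes 4 rose (6.78%) and 8 fell (13.6%), also near the shares for all genes. Among them were the rise of LAMP1 (0.87) and the falls of the channel TPCN1 (-1.29) and cathepsin CTSH (-1.25). Of 37 autophagy genes 3 rose and 3 fell (8.11% each). The proteases ATG4A (1.36) and ATG4C (1.25) rose, and the falls of BECN1 (-1.25) and ATG7 (-0.93) are of genes with part of their exons opposite another gene.

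The direct contrast of the 2 siRNAs gave 1622 genes higher (15.3%) and 1740 lower (16.4%) with PKR siRNA 1 than with PKR siRNA 2. Of the 904 genes that PKR siRNA 1 raised, 438 (48.5%) were also higher than with PKR siRNA 2, 27 were lower and 439 were not called in that contrast. Of the 1331 that it lowered, 768 (57.7%) were also lower than with PKR siRNA 2, 51 were higher and 512 were not called. The 2 contrasts share the PKR siRNA 1 libraries, so these shares are a description. Among genes with a mean level of 50 or more normalized counts, the largest differences upward included those of the retrotransposon-derived gene PEG10 (log2 difference 3.06), the ectonucleotidase NT5E (2.82), C15orf52 (2.73) and the mitochondrial ribosomal protein MRPL42 (2.72). MRPL42 had 125, 95.6 and 137 in the controls and 130, 122 and 108 with PKR siRNA 1, but 14.9, 18.2 and 18.8 with the other siRNA. PKR siRNA 1 and control thus overlapped, and the difference lay in the PKR siRNA 2 libraries. PEG10 had 661, 683 and 627 in the controls and 451, 462 and 483 with PKR siRNA 1, and 51.7, 63.3 and 50.8 with the other siRNA.

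At the same minimum level the largest differences downward were those of LXN (-4.02), CRIP1 (-3.76), TM7SF2 (-3.72), MXRA5 (-3.16) and CRABP2. LXN had 261, 247 and 245 with control siRNA and 57.8, 56.2 and 47.3 with PKR siRNA 1, but 847, 925 and 885 with the other siRNA. It fell with the first siRNA and was highest with the second. VWA1 had the same order, with 667, 738 and 637, then 153, 198 and 131, then 1160, 1110 and 1140. FURIN was at 275, 284 and 289 with PKR siRNA 2, and ALCAM at 115, 162 and 138, both far above their PKR siRNA 1 levels. Among the 12 largest falls SORL1 alone was not called in the contrast of the siRNAs, while of the 12 largest rises MTMR6, CDK6, MAP3K3, GEMIN5, THBS1 and PTP4A1 were not.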

How the data were processed

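Of the 18 libraries of the series, the 9 of the siRNA experiment were used. Per the labels and the paper, the authors aligned paired-end reads to hg38 (TopHat), counted them per gene (featureCounts) and scaled the counts (TCC). The deposited unit is thus a normalized signal: each gene's reads over 1 factor for its library. The annotation, and whether counting used strand, are not given in the sources used here, and genes overlapping another gene are named as such. In each library 100% of the values were whole multiples of 1 read (tolerance 0.01 reads). Depth was 1512940 to 1873906 reads on genes, which limits genes with few reads. Replicates differed by more than sampling noise (chi-square per degree of freedom 1.03 to 1.37), and none were merged.

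A pseudocount of 1 was added to the normalized counts, and their log2 was tested by limma 3.58.1 (R 4.3.3, lmFit and trended eBayes, two-sided). The 3 siRNA groups shared the fit, genes needed a mean of 10 or more, and p-values were adjusted over all genes tested by Benjamini-Hochberg. Genes with an adjusted p under 0.05 and a fold change over 1.5 were called. Named genes also had an exact permutation test. The count test of edgeR 4.0.16 on the recovered reads called 955 genes up and 1310 down. Alternatives changed the pseudocount (0.5 or 5), the filter (none, or a mean of 30), the scaling (median of ratios), the groups fitted, the block (replicate number) or the tool (edgeR, DESeq2 1.42.0), or left out 1 library.

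The comparison, the genes and the 53 lists were chosen with earlier results of these data known, and the lists were written from memory. Genes named are EIF2AK2, PADI2, SORL1, ALDH1A3, the 12 largest rises and falls among called genes at a mean of 50 or more whose libraries lay beyond the controls, the 5 largest differences between the siRNAs in each direction, and in each list up to 3 rising and 3 falling members and the most abundant one. Other members are named where the called members of a list are given together, as markers, or for a promoter motif. Some genes that meet these rules are not reported here. For genes with older symbols, 70 names were matched through RefSeq. Scripts were tested on simulated data. Sequences of the siRNAs are not used here.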

Additional observations from a re-analysis of the deposited data

How the results depend on the processing

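The numbers of genes called stayed within 1.5 times the values given under each alternative. For PKR siRNA 1 against control siRNA they ran from 637 (minimum mean of 30, which tests fewer genes) to 1024 (no filter) up, and from 1000 to 1496 down. Leaving out each library in turn gave 839 to 890 up and 1286 to 1361 down. With the replicate number as a block, 905 genes were up and 1332 down, and 1621 were higher and 1738 lower than with PKR siRNA 2. Deviations of libraries with the same number correlated at -0.0269 to 0.0324. These deviations hold much counting noise, so whether the numbers pair the libraries cannot be told from them. DESeq2 on the recovered reads called 792 up and 1145 down. Of 287 named genes besides EIF2AK2, 43 lost their call under at least 1 alternative, and 0 reversed. The SE of genes with a mean of 10 to 30 (median 0.28) limits what can be seen in them.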

Other observations

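Other lists held the following calls, where 8.53% of all genes rose and 12.6% fell. Of 26 p53 targets 4 rose and 3 fell. Of 16 genes of the BCL2 family 2 rose and 2 fell, among them the pore formers BAK1, which fell from 162 ± 9.53 to 58.6 ± 6.64, and BAX, which rose from 79.5 ± 15.5 to 132 ± 17.8 (normalized counts, SD, n = 3 each). The other calls of that family were lost with single libraries, the rise of BCL2A1 without any 1 of the PKR siRNA 1 libraries or the first or the second control library, and the fall of BOK without the first or the third PKR siRNA 1 library or the second control library, while 4 fell without the first control library. Of 24 ABC transporters 1 rose (2 without the second control library) and 4 fell, among them ABCG2, a drug efflux pump, with 180, 167 and 157 in the controls and 52.2, 58.0 and 66.6 with PKR siRNA 1. Of 17 genes of polyamine metabolism 2 rose and 2 fell, with AMD1, a key enzyme of synthesis, up by 1.26 and SAT1, which starts breakdown, at -0.98 on the log2 scale. Of 17 genes of hyaluronan and hexosamine metabolism 1 rose (2 without the second PKR siRNA 1 library) and 4 fell, led by OGT (-1.25), the enzyme that adds O-GlcNAc to proteins, and of 29 nucleotide synthesis genes 1 rose and 2 fell. Of those falls NME4 lost its call without the first PKR siRNA 1 library and IMPDH1 without the third, while RRM2 was called down without the second or the third PKR siRNA 1 library or the third control library.

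Of 21 genes of RNA interference 1 rose (2 without the first PKR siRNA 1 library) and 2 fell. DICER1 went from 244, 244 and 249 to 147, 155 and 160 (log2 fold change -0.67). Of 40 splicing factors of the SR and hnRNP families 0 rose and 1 fell, PTBP2 (-1.16), with 2 falls without the first PKR siRNA 1 library or the third control library, while 10 were higher at an unadjusted p under 0.05 in limma and edgeR and DESeq2 called 0 up. Of 25 long RNAs and snoRNA host genes 4 rose and 2 fell, and without the second control library or with a minimum mean of 30 the rises were 2, and without the third control library 1 fell. Of 14 pancreatic cancer drivers and lineage factors 1 rose, KLF4 (1.07), or 2 without the first PKR siRNA 1 library, and 2 fell, MUC1 (-0.94) and TGFBR2 (-0.80).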
